A study of Equus caballus with 18 samples.

Results

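A set of 60 genes of mitosis and chromosome segregation was followed in RNA of equine joint fluid before and after a corticosteroid injection. The genes were taken from a list of symbols, and a gene was measured where the array had a probe set with that symbol alone. This held for 57 of the 60 genes, out of 16661 named genes and 30559 probe sets in all. KIF4A, KIF14 and SGOL1 had no such probe set and are named only. The 6 horses were exercised adult Thoroughbreds from a study of 12 geldings and mares aged 4 to 8 years. The drug was isoflupredone acetate, a synthetic corticosteroid given at 8 mg into the right antebrachiocarpal joint, the upper joint of the carpus. The groups were fluid taken before the injection (baseline, 6 arrays), fluid taken 24 h after it (6 arrays) and fluid taken on day 7 (5 arrays). All 3 groups come from the same drug-treated horses, and saline-injected joints were not analysed here. Drug, needle, repeated sampling and the return to exercise before day 7 therefore cannot be told apart.

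Mitosis is the step in which a cell that has copied its DNA shares the copies between its daughter cells. Its genes are switched on late in the cell cycle, mostly in G2 phase, so their transcripts are scarce in resting cells and abundant in a dividing population. Cyclin-dependent kinase 1 with its cyclins starts the process, condensins and topoisomerase compact and untangle the chromosomes, kinetochores attach them to the spindle, a checkpoint holds the cell until all are attached, and the anaphase promoting complex then frees the sister chromatids. Joint fluid holds few cells, mainly macrophages and lymphocytes, and neutrophils in inflamed joints. Tissue macrophages can renew themselves by local division, and activated lymphocytes divide too.

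The values are log2 expression values of a microarray, on which a difference of 1 is a 2-fold difference. Their precision is limited by how few arrays there are. Horses 1 and 2 had day 7 values that were identical for 99.3% of probe sets, among them those of all 57 genes. The pair was counted as 1 array, which stands for both horses. The 24 h array of horse 2 stood apart from the other 24 h arrays for many of these genes and the results that rest on it are given with and without it. The spread of all values within an array (the SD over probe sets) was 1.37 ± 0.0931 at baseline, 1.56 ± 0.120 at 24 h and 1.70 ± 0.119 at day 7 (SD, n = 6, 6 and 5 arrays). It moved with time together with the results given here, and its part in them was not tested apart from a fit that holds it as a covariate. In fluid, more dividing cells and more mitotic RNA per cell cannot be told apart.

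Day 7 was the time at which the mitosis genes were high. Of the 57 genes, 29 rose against baseline and 1 fell at a Benjamini-Hochberg adjusted p under 0.05 in limma (called), and 27 did not pass. Among all 30559 probe sets, 27.3% were called, 11.9% higher and 15.4% lower, and among the 16661 named genes 18% were higher and 8.43% lower. The median log2 change of the 57 genes was 0.90, with quartiles of 0.52 and 1.57, against -0.04 over all named genes and -0.24 over all probe sets. The fitted change was above 0 for 53 of the 57 genes, against 37.4% of probe sets and 48% of named genes, and above 1 for 28 of them, against 11.1% and 15.2%. An unadjusted p under 0.05 was reached by 40 of the 57 genes, against 43.6% of probe sets. Within horses, 28 genes were higher in all 5 day 7 arrays, against 14.1% of probe sets. The shared array was set there against the mean baseline of horses 1 and 2. All 5 day 7 arrays lay above all 6 baseline arrays for 15 of the 57 genes, where 3.62% of probe sets had such a gap upwards, and below them for 1 gene, where 8.11% had it downwards. Calls fell over the whole array when any of horses 3 to 6 was left out. Without horse 3, 21 genes were called, where 7.73% of probe sets were, and without horse 6, 27 genes, where 14.8% were. Without horse 4, 19 genes were called, where 12.9% of probe sets were. Without horse 5 there were 11, where 5.76% of probe sets were called, and without the day 7 array of horse 5 alone 17, where 8.32% were. Without the shared array of horses 1 and 2 there were 39, where 31.8% were. With array spread held as a covariate no gene was called, nor was any other probe set, and the median change of the 57 genes was then 0.43.

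The mean over the 57 genes showed how far the horses differed at day 7. The baseline arrays lay close together, between 3.79 and 3.94, with a mean of 3.86 ± 0.0503 (SD, n = 6). The median of all probe sets on these arrays averaged 3.96 ± 0.0366 (SD, n = 6), so the mean of the 57 genes was near it at baseline. At 24 h the means over the 57 genes lay between 3.62 and 4.25, with a mean of 3.81 ± 0.24 (SD, n = 6), and horse 2 was the highest. At day 7 the shared array of horses 1 and 2 gave 4.12, horse 3 gave 4.57, horse 4 gave 5.52, horse 5 gave 5.66 and horse 6 gave 4.50, with a mean of 4.87 ± 0.68 (SD, n = 5). Every day 7 array was above every baseline array, while the 24 h array of horse 2 was above the lowest day 7 array.

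**Figure D1:**
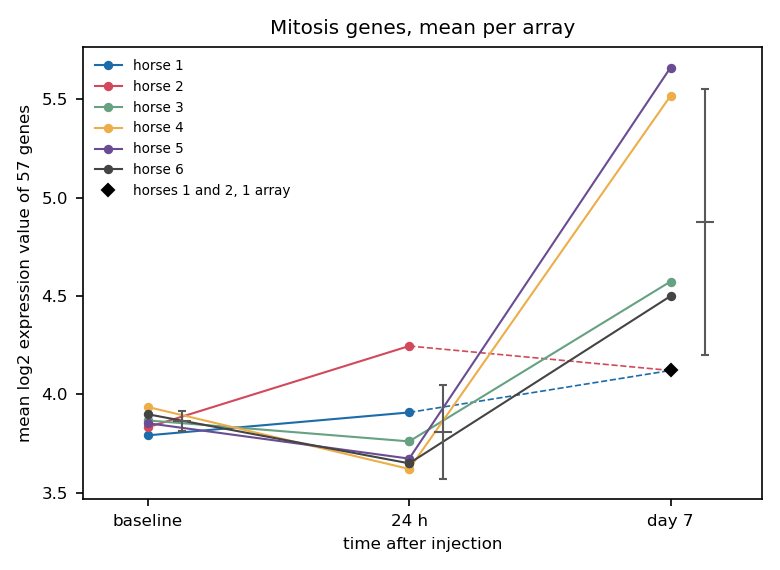
Mean log2 expression value over 57 mitosis genes (y axis) in each array at baseline, 24 h and day 7 (x axis), with lines joining arrays of 1 horse and dashed lines leading to the array shared by horses 1 and 2; grey marks are group means with SD. The baseline arrays lie between 3.79 and 3.94, and horses 4 and 5 reach 5.52 and 5.66 at day 7.

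Genes that start mitosis were among the clearest rises. For each gene below, the 3 values at baseline and the 3 at 24 h are the lowest, the median and the highest of 6 arrays, and the 5 values at day 7 are those of the shared array of horses 1 and 2 and then of horses 3, 4, 5 and 6. CCNA2, the cyclin A2 that partners cyclin-dependent kinases from S phase to early mitosis, measured 2.96, 3.67 and 4.54 at baseline, 3.42, 3.71 and 5.26 at 24 h, and 4.40, 5.86, 7.09, 7.91 and 6.09 at day 7. The shared array overlapped with the baseline range and the other 4 day 7 arrays were above it. The change from baseline to day 7 was 2.50 ± 0.50 (SE, adjusted p = 0.00791) on the log2 scale, or 5.66-fold. CCNB2, a B-type cyclin that activates CDK1, measured 3.50, 3.96 and 4.41 at baseline, 3.68, 4.26 and 4.65 at 24 h, and 4.67, 5.16, 5.84, 6.65 and 5.33 at day 7. All day 7 arrays were above all baseline and all 24 h arrays, and the gene rose by 1.60 ± 0.33 (SE, adjusted p = 0.00849). CCNB1, the other B-type cyclin, measured 3.39, 3.82 and 4.28 at baseline, 2.88, 3.33 and 3.89 at 24 h, and 3.41, 4.31, 6.18, 6.82 and 4.76 at day 7. Its arrays of horses 3 to 6 exceeded every baseline array, but the shared array stayed at the low end of baseline, and the change of 1.26 ± 0.45 (SE, adjusted p = 0.0527) did not pass.

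Among the kinases, phosphatases and other regulators of mitotic entry, some rose and some did not pass. PLK1, the polo-like kinase that drives entry and spindle formation, measured 4.07, 4.98 and 5.43 at baseline, 4.42, 5.24 and 5.52 at 24 h, and 5.62, 6.26, 6.96, 7.07 and 5.72 at day 7. Its day 7 arrays were all above the other times, and it rose 2.77-fold, by 1.47 ± 0.26 (SE, adjusted p = 0.00572). FOXM1, the transcription factor that switches on many G2 and mitotic genes, measured 4.17, 4.55 and 5.03 at baseline, 4.71, 5.08 and 5.40 at 24 h, and 5.65, 5.14, 6.21, 6.62 and 5.15 at day 7. It rose by 1.21 ± 0.28 (SE, adjusted p = 0.0122), with no overlap between day 7 and baseline, while its 24 h arrays overlapped with both other times. CDCA3, a protein linked to mitotic entry, measured 4.68, 4.93 and 5.12 at baseline, 4.34, 5.07 and 5.48 at 24 h, and 5.50, 5.86, 6.11, 6.56 and 5.86 at day 7, and it rose by 1.07 ± 0.24 (SE, adjusted p = 0.0122) with day 7 above both other times. AURKA, the kinase of the centrosomes, rose by 1.16 ± 0.32 (SE, adjusted p = 0.0209). Its shared array (4.26) lay inside the baseline range and did not exceed the mean baseline of horses 1 and 2. CDK1 itself, the central kinase, measured 2.34, 2.37 and 2.45 at baseline, 2.20, 2.42 and 2.70 at 24 h, and 2.33, 2.62, 3.49, 3.58 and 2.53 at day 7. Horses 4 and 5 stood out at day 7, horses 3 and 6 lay slightly above the baseline range and the shared array just below it, and the change of 0.52 ± 0.23 (SE, adjusted p = 0.102) did not pass. This probe set lies in the dimmest of 4 brightness classes. CDC25B, a phosphatase that activates CDK1, measured 4.76, 5.53 and 5.82 at baseline, 4.89, 5.26 and 5.58 at 24 h, and 5.43, 5.17, 5.99, 6.16 and 5.45 at day 7, with overlapping groups and a change of 0.20 ± 0.19 (SE, adjusted p = 0.415). The change of CDC25C, the related phosphatase, was 0.55 and did not pass either. In all, 6 of these 10 genes rose, 0 fell and 4 did not pass.

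Among the genes of the spindle checkpoint and of anaphase onset, 4 of 10 rose and 6 did not pass. UBE2C, the ubiquitin-conjugating enzyme that works with the anaphase promoting complex, had the largest change of the 57 genes. It measured 3.87, 4.05 and 4.18 at baseline, 3.28, 3.92 and 5.46 at 24 h, and 5.40, 5.94, 7.85, 8.13 and 6.54 at day 7. All day 7 arrays were above all baseline arrays, and the gene rose 6.69-fold, by 2.74 ± 0.47 (SE, adjusted p = 0.00523). BUB3, a checkpoint protein, measured 3.40, 4.07 and 4.67 at baseline, 3.86, 4.88 and 6.09 at 24 h, and 4.91, 6.44, 7.39, 6.87 and 5.34 at day 7, and rose by 2.13 ± 0.38 (SE, adjusted p = 0.00595). Its 24 h arrays already spread upwards, with horse 2 the highest, and its 24 h change of 0.83 was the highest of the 57 genes, without passing the test. BUB1B, the checkpoint kinase relative BubR1, measured 3.29, 3.71 and 4.12 at baseline, 3.44, 3.55 and 4.86 at 24 h, and 4.53, 5.35, 6.15, 6.12 and 4.48 at day 7. It rose by 1.59 ± 0.35 (SE, adjusted p = 0.0108) with no overlap between day 7 and baseline.

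Of the remaining genes of anaphase onset and the checkpoint, 1 rose. PTTG1, the securin that holds separase in check, measured 5.01, 5.33 and 6.18 at baseline, 4.67, 5.75 and 6.39 at 24 h, and 5.77, 6.37, 6.80, 7.30 and 6.71 at day 7. Its shared array lay within the baseline range, the other 4 were above it, and it rose by 1.09 ± 0.28 (SE, adjusted p = 0.0169). BUB1, the kinase that marks centromeres for the checkpoint, measured 3.89, 4.20 and 4.53 at baseline, 3.19, 4.09 and 4.57 at 24 h, and 4.50, 4.47, 5.58, 5.88 and 4.79 at day 7, and its change of 0.87 ± 0.33 (SE, adjusted p = 0.0613) did not pass. CDC20, which activates the anaphase promoting complex, measured 4.32, 4.73 and 4.97 at baseline, 4.04, 4.74 and 5.34 at 24 h, and 4.83, 4.65, 5.82, 5.16 and 5.39 at day 7, with overlapping groups and a change of 0.47 ± 0.29 (SE, adjusted p = 0.215). The other genes that did not pass had changes of 0.62 for CDCA5 (sororin, which protects cohesion), 0.53 for TTK (a checkpoint kinase), 0.28 for MAD2L1 (the checkpoint protein MAD2) and 0.06 for ESPL1 (separase).

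The 4 genes of the chromosomal passenger complex, which corrects attachment errors and directs cytokinesis, did not pass. AURKB, its kinase, measured 3.67, 4.11 and 4.34 at baseline, 3.34, 3.79 and 4.71 at 24 h, and 4.17, 4.24, 5.43, 5.60 and 4.04 at day 7. BIRC5, the survivin of this complex, measured 3.60, 3.98 and 4.56 at baseline, 3.25, 3.73 and 4.28 at 24 h, and 3.92, 3.49, 5.44, 5.63 and 4.74 at day 7. Both were high at day 7 in horses 4 and 5, and BIRC5 also in horse 6. The other arrays lay within the baseline range, except that BIRC5 in horse 3 lay below it. The change of AURKB was 0.63 ± 0.32 (SE, adjusted p = 0.143) and that of BIRC5 0.60 ± 0.36 (SE, adjusted p = 0.21). INCENP, the scaffold, had a change of -0.03 and CDCA8 (borealin) one of -0.21, neither past the test, and the value of INCENP turned positive after median centring of the arrays.

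Of the 10 kinetochore and centromere genes 3 rose, 1 fell and 6 did not pass. CENPF, a large kinetochore protein that accumulates in G2, measured 3.00, 3.72 and 3.97 at baseline, 3.22, 3.49 and 4.41 at 24 h, and 4.87, 4.46, 5.40, 5.31 and 4.18 at day 7. All its day 7 arrays but that of horse 6 exceeded 4.4, all were above baseline, and it rose by 1.21 ± 0.26 (SE, adjusted p = 0.00972). CENPN, which binds the centromeric nucleosome, rose by 1.31 ± 0.36 (SE, adjusted p = 0.0221), and CENPA, the histone variant of that nucleosome, by 1.30 ± 0.37 (SE, adjusted p = 0.0248). The shared array of CENPN (3.20) lay inside the baseline range and did not exceed the mean baseline of horses 1 and 2. SPC24, a subunit of the NDC80 complex that grips microtubules, was the only one of the 57 genes to fall, with a log2 change of -0.64 ± 0.19 (SE, adjusted p = 0.0279). It measured 3.45, 3.73 and 3.96 at baseline, 2.81, 3.13 and 3.59 at 24 h, and 2.97, 2.94, 3.33, 3.09 and 3.17 at day 7. The day 7 arrays lay wholly below the baseline arrays, and the 24 h arrays overlapped with both, with a change of -0.57 that did not pass. The fall was not called after quantile normalization or median centring, nor without horse 3, 4, 5 or 6. The same held without the day 7 array of horse 5, with only the arrays of the 2 times compared, and with array spread as a covariate. SPC24 lies in class 2 of 4 brightness classes counted from the dimmest, where 10.1% of named genes were called lower. The other subunits of the NDC80 complex did not pass, with changes of 0.87 for NDC80, 0.44 for NUF2 and -0.56 for SPC25. The same held for CENPE (0.63), CENPI (0.42) and CENPK (0.34).

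**Figure D2:**
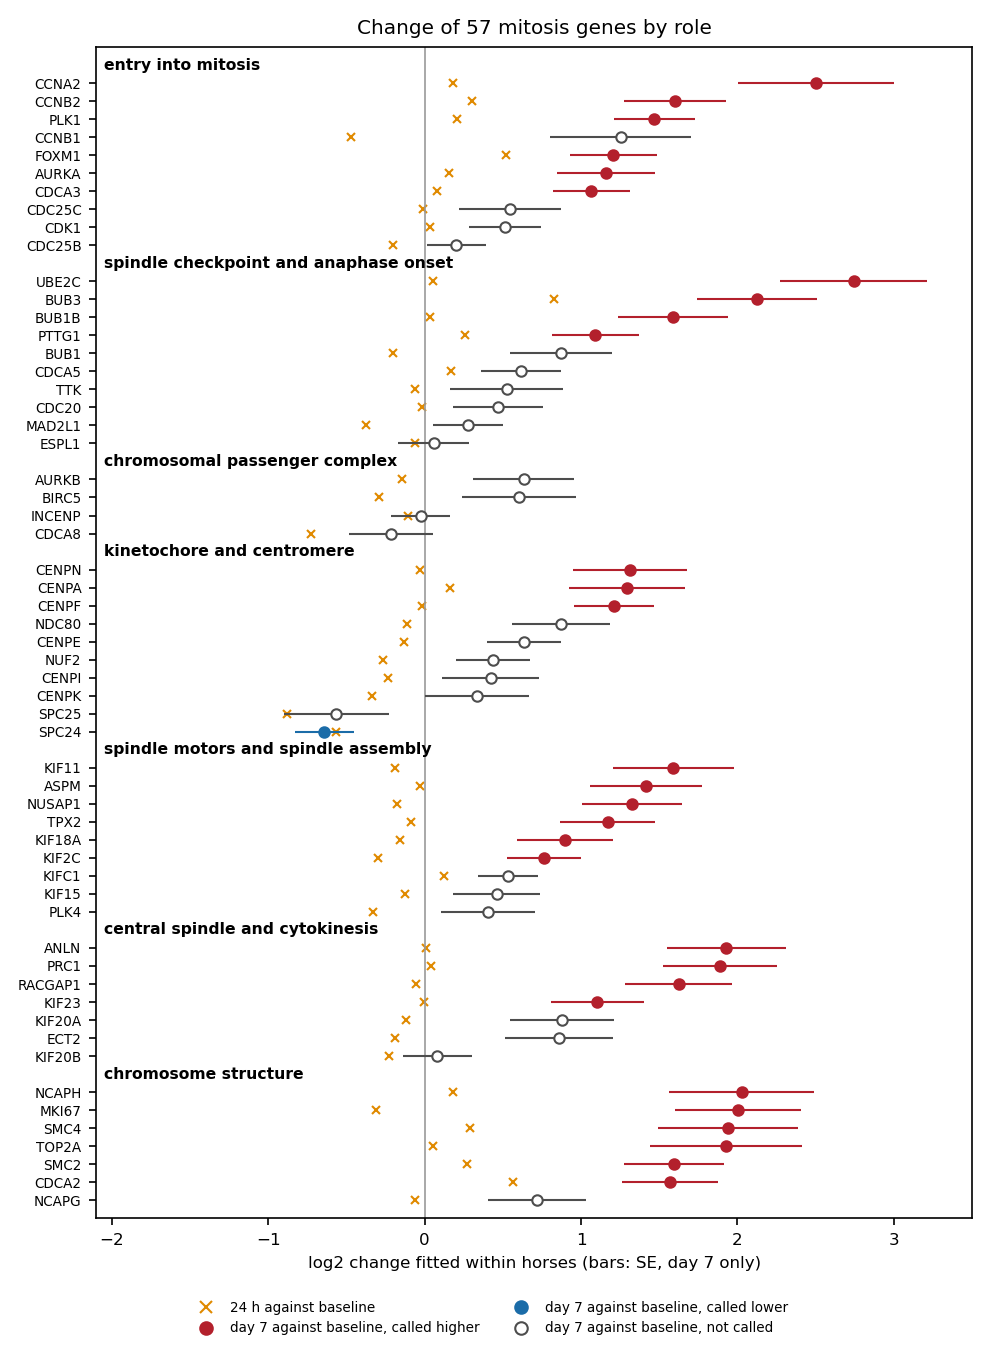
Log2 change of 57 mitosis genes by role, fitted within horses (x axis); circles are day 7 against baseline with SE, filled where called, and crosses are 24 h against baseline. Most circles lie to the right of 0, up to 2.74 for UBE2C, while the crosses lie between -0.88 and 0.83.

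Spindle motors and spindle assembly factors rose in 6 of 9 genes, and 3 did not pass. KIF11, the kinesin that pushes spindle poles apart, measured 3.28, 3.58 and 3.93 at baseline, 3.00, 3.35 and 3.91 at 24 h, and 3.78, 4.99, 6.25, 6.37 and 4.71 at day 7. Only its shared array overlapped with baseline, and it rose 3.01-fold, by 1.59 ± 0.39 (SE, adjusted p = 0.0146). NUSAP1, which bundles spindle microtubules, measured 4.02, 4.27 and 4.36 at baseline, 3.85, 3.97 and 4.61 at 24 h, and 4.71, 5.01, 6.41, 6.80 and 4.88 at day 7. Its day 7 arrays were above all arrays of the other times, and it rose by 1.33 ± 0.32 (SE, adjusted p = 0.0141). ASPM, a spindle pole protein, rose by 1.42 ± 0.36 (SE, adjusted p = 0.0165), and TPX2, the activator of AURKA, by 1.17 ± 0.30 (SE, adjusted p = 0.018). KIF18A, a kinesin that damps chromosome movement, rose by 0.90 ± 0.31 (SE, adjusted p = 0.0453), and KIF2C, which shortens microtubules, by 0.77 ± 0.24 (SE, adjusted p = 0.0315). KIFC1 (0.53), KIF15 (0.46) and PLK4, the kinase of centriole duplication (0.40), did not pass.

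Genes of the central spindle and of cytokinesis, the final cleavage of the cell, rose in 4 of 7 cases. PRC1, which cross-links the microtubules of the central spindle, measured 2.69, 3.69 and 4.15 at baseline, 2.81, 3.57 and 4.52 at 24 h, and 4.71, 5.25, 6.26, 5.91 and 5.35 at day 7. It separated day 7 from both other times and rose 3.70-fold, by 1.89 ± 0.37 (SE, adjusted p = 0.00738). ANLN, the anillin of the contractile ring, measured 3.54, 3.83 and 4.14 at baseline, 3.42, 3.58 and 4.84 at 24 h, and 4.56, 5.24, 6.72, 6.93 and 5.46 at day 7. It rose by 1.93 ± 0.38 (SE, adjusted p = 0.00758), with no overlap with baseline. RACGAP1, a subunit of the centralspindlin complex, measured 2.78, 3.50 and 4.08 at baseline, 2.85, 3.27 and 4.21 at 24 h, and 4.01, 4.74, 5.99, 5.85 and 4.88 at day 7, and rose by 1.62 ± 0.34 (SE, adjusted p = 0.00947), with its shared array just inside the baseline range. KIF23, its kinesin partner, rose by 1.11 ± 0.30 (SE, adjusted p = 0.0198). KIF20A (0.88), ECT2, which activates RhoA at the cleavage site (0.86), and KIF20B (0.08) did not pass.

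Chromosome structure was the role with the highest median change, 1.93, and 6 of its 7 genes rose. MKI67, which encodes the Ki-67 protein that coats mitotic chromosomes and serves as the common marker of dividing cells, measured 4.66, 4.91 and 5.55 at baseline, 4.16, 4.38 and 6.69 at 24 h, and 6.20, 6.82, 7.63, 7.60 and 6.97 at day 7. The day 7 arrays were all above baseline, with a mean of 7.04 ± 0.60 (SD, n = 5), against 5.04 ± 0.38 at baseline (SD, n = 6). MKI67 rose 4.01-fold, by 2.00 ± 0.40 (SE, adjusted p = 0.00824). The probe set used was the brighter of 2 for this gene, and the other one rose by 1.95 ± 0.47 (SE, adjusted p = 0.0137). TOP2A, the topoisomerase that untangles sister chromatids, measured 3.49, 3.98 and 4.74 at baseline, 3.15, 3.92 and 5.32 at 24 h, and 4.21, 5.77, 7.03, 7.49 and 5.39 at day 7. It overlapped with baseline in the shared array alone, and rose by 1.93 ± 0.49 (SE, adjusted p = 0.0164).

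Of the 4 condensin subunits, SMC2, SMC4 and NCAPH rose. SMC2, one of the paired ATPases of condensin, measured 3.11, 3.88 and 4.45 at baseline, 3.68, 3.91 and 5.03 at 24 h, and 4.57, 5.48, 5.79, 6.36 and 5.08 at day 7, and rose by 1.60 ± 0.32 (SE, adjusted p = 0.00803) with no overlap with baseline. SMC4, its partner, measured 3.37, 4.28 and 4.87 at baseline, 3.60, 4.41 and 5.73 at 24 h, and 4.51, 6.31, 7.02, 7.38 and 5.87 at day 7, and rose by 1.94 ± 0.45 (SE, adjusted p = 0.0123), with the shared array inside the baseline range. NCAPH, the subunit that closes the condensin I ring, measured 3.91, 4.34 and 5.73 at baseline, 3.99, 4.51 and 5.92 at 24 h, and 5.41, 6.44, 7.44, 7.47 and 5.93 at day 7, and rose by 2.03 ± 0.46 (SE, adjusted p = 0.0119), although its highest baseline array, that of horse 4, exceeded the shared day 7 array. CDCA2, which brings a phosphatase back to chromosomes at the end of mitosis, measured 2.75, 3.56 and 4.17 at baseline, 3.63, 4.03 and 4.60 at 24 h, and 4.18, 4.99, 5.76, 5.79 and 4.87 at day 7, and rose by 1.57 ± 0.31 (SE, adjusted p = 0.00757). NCAPG, another subunit of condensin I, had a change of 0.72 ± 0.31 (SE, adjusted p = 0.0963) and did not pass.

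**Figure D3:**
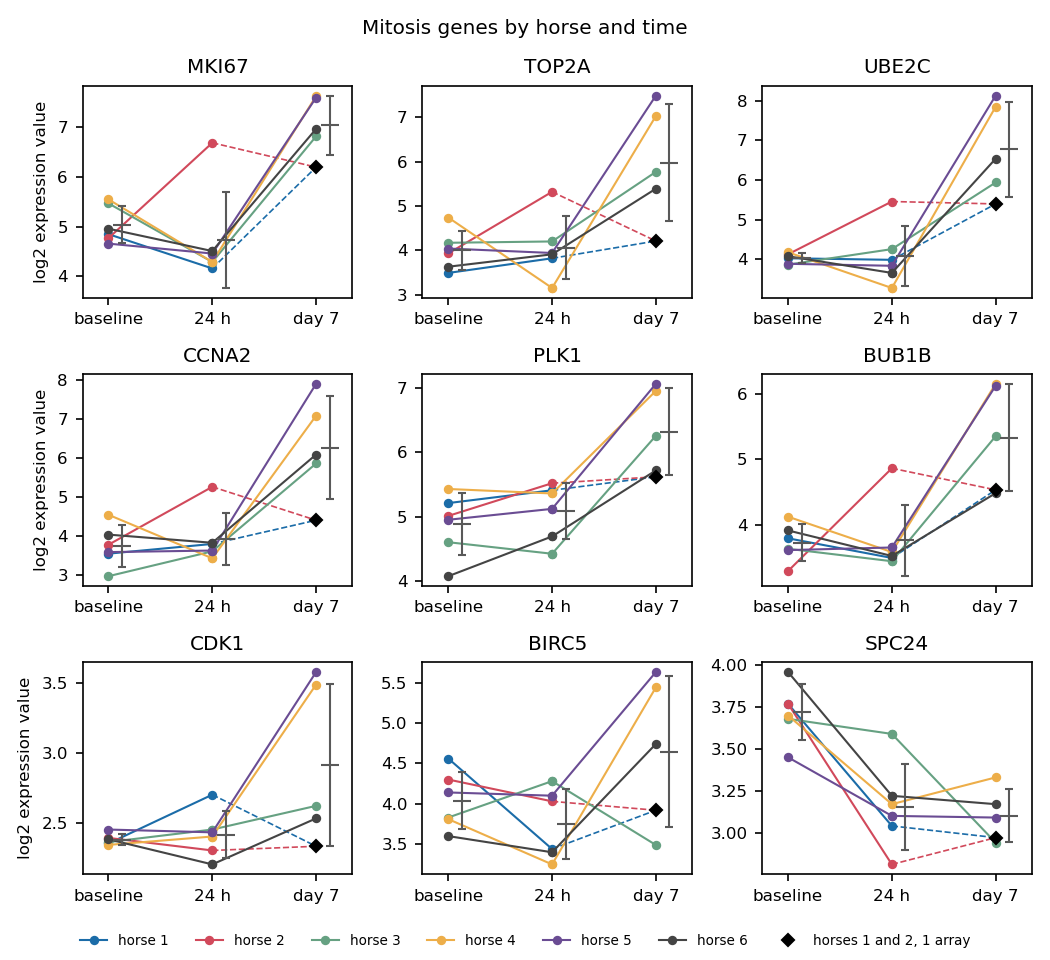
Log2 expression values (y axis) of 9 mitosis genes at baseline, 24 h and day 7 (x axis), with 1 line per horse, dashed lines to the array shared by horses 1 and 2 and grey group means with SD. MKI67 is above baseline in all day 7 arrays and in the 24 h array of horse 2 (6.69), CDK1 and BIRC5 are high mainly in horses 4 and 5, and SPC24 is low at both later times.

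The first day after the injection was compared next. In limma, 0 of the 57 genes were called against baseline, where 1.01% of all probe sets were called, 0.543% higher and 0.471% lower. At an unadjusted p under 0.05 there were 4 genes, 1 higher and 3 lower, against 19.9% of probe sets, 7.78% higher and 12.1% lower. The median log2 change was -0.06, against 0.01 over all named genes and -0.06 over all probe sets, and the changes ran from -0.88 for SPC25 to 0.83 for BUB3. The change was above 0 in 21 of the 57 genes as deposited, where 44.2% of probe sets were, and in 34 after quantile normalization. No gene had all its 24 h arrays above or below all its baseline arrays, where 0.347% and 0.877% of probe sets had.

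Horse 2 differed from the other 5 horses at 24 h. MKI67 gave 6.69 in its 24 h array, and 4.16 to 4.51 in the other 24 h arrays. For CCNA2 the values were 5.26 and 3.42 to 3.82, for TOP2A 5.32 and 3.15 to 4.20, for UBE2C 5.46 and 3.28 to 4.26, and for BUB1B 4.86 and 3.44 to 3.65. This array was the highest of the 6 for 30 of the 57 genes, a share that was not counted over all named genes. It exceeded every baseline array for 24 of the 57, where it did for 27.2% of named genes. Within horses, the mean change of the 57 genes at 24 h was 0.41 in horse 2 and 0.12 in horse 1, then -0.11, -0.31, -0.18 and -0.25 in horses 3 to 6. In horses 4, 5 and 6, 21, 19 and 23 of the 57 genes were below every baseline array, where 13.1%, 13.3% and 16.9% of named genes were. The 24 h array of horse 2 had the widest spread of that time (SD 1.725) and 4 genes below every baseline array. The part of array spread in these counts was not tested. When the 24 h array of horse 2 was left out, the median change at 24 h was -0.22, 11 of the 57 changes were above 0, and still no gene was called.

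Day 7 was also compared with 24 h. Of the 57 genes, 0 were called in limma, and neither was any of the 30559 probe sets (0%). At an unadjusted p under 0.05 there were 41 genes, all higher at day 7, where 7.41% of probe sets were higher and 5.79% lower at that level. The median log2 change was 1.00, against -0.05 over all named genes, and 56 of the 57 changes were above 0, against 35.5% of probe sets, SPC24 being the exception. For 24 of the 57 genes all 5 day 7 arrays were above 24 h within horses, where this held for 4.3% of probe sets. The shared array was set there against the mean of the 24 h arrays of horses 1 and 2. In some of these genes it was below the 24 h array of horse 2 alone, as for MKI67 (6.20 against 6.69). UBE2C had a change of 2.69 ± 0.47 (SE, unadjusted p = 5.69e-05, adjusted p = 0.145) and MKI67 one of 2.31 ± 0.40 (SE, unadjusted p = 5.76e-05, adjusted p = 0.145). All day 7 arrays were above all 24 h arrays for 5 genes (CCNB2, PLK1, CDCA3, NUSAP1 and PRC1), where 0.259% of probe sets showed this. This comparison shares its day 7 arrays with the comparison against baseline, so the 2 are not independent.

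The number of calls against 24 h depended on which arrays were kept. Without the 24 h array of horse 2, 18 of the 57 genes were called, all higher at day 7, where 1.41% of all probe sets were called in that fit, and without horse 2 altogether 19 were, where 2% of probe sets were. In the fit without that single array, MKI67 had a change of 2.73 ± 0.26 (SE, adjusted p = 0.00213), PRC1 one of 2.18 ± 0.28 (SE, adjusted p = 0.00641), UBE2C one of 3.00 ± 0.44 (SE, adjusted p = 0.011) and TOP2A one of 2.19 ± 0.45 (SE, adjusted p = 0.042). Without the day 7 array shared by horses 1 and 2, 17 genes were called, where 0.35% of probe sets were, and 13 genes were called in both fits. The 24 h array of horse 2 stood apart through high values of these same genes. The shared array had their lowest mean at day 7. Leaving out either array therefore widens the difference for these genes. The calls and p-values of such fits describe this dependence and are no test of the rise. With the shared array attributed to horse 1 alone, 2 genes were called, where 0.0393% of probe sets were. Without another horse or either of the highest day 7 arrays the count remained 0.

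The horses differed in the size of the day 7 change. The mean change of the 57 genes from baseline to day 7 was 0.31 for the shared array of horses 1 and 2, 0.71 for horse 3, 1.58 for horse 4, 1.81 for horse 5 and 0.60 for horse 6. In the same order, 38, 43, 56, 54 and 45 of the 57 genes were above the horse's own baseline, where 53.9%, 48.7%, 47.6%, 45.9% and 54.3% of named genes were. The baseline of the shared array was the mean of the baseline arrays of horses 1 and 2. Changes above 2-fold were seen in 7, 18, 45, 46 and 19 of the 57 genes, where 5.66%, 20.7%, 18.7%, 24.1% and 17.9% of named genes had them. Horses 4 and 5 thus had the broadest change. Their day 7 arrays also had the widest spread of the 17 arrays (SD 1.824 and 1.805). It was 1.531 in the shared array, 1.705 in horse 3 and 1.656 in horse 6. The part of array spread in these differences between horses was not tested. The highest of all 17 arrays was the day 7 array of horse 5 for 33 genes and that of horse 4 for 17, and 7 genes had their highest value at an earlier time. The share of all named genes with their highest value in these arrays was not counted. The day 7 arrays of horses 5 and 4 exceeded every baseline array for 51 and 50 of the 57 genes, where 31.1% and 33.2% of named genes did.

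The genes varied together from array to array. The median correlation between pairs of the 57 genes was 0.71 over the 17 arrays, and 0.63 in residuals from horse and time. The median correlation of a mitosis gene with the other named genes was -0.13. These values are descriptions, since all genes share the arrays and their spread. NUSAP1 (0.98), KIF11 (0.98), CENPN (0.97), ASPM (0.97) and UBE2C (0.97) followed the mean of the other mitosis genes most closely. The least alike were SPC24 (-0.33), INCENP (0.00), SPC25 (0.14), ESPL1 (0.41) and KIF20B (0.42).

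**Figure D4:**
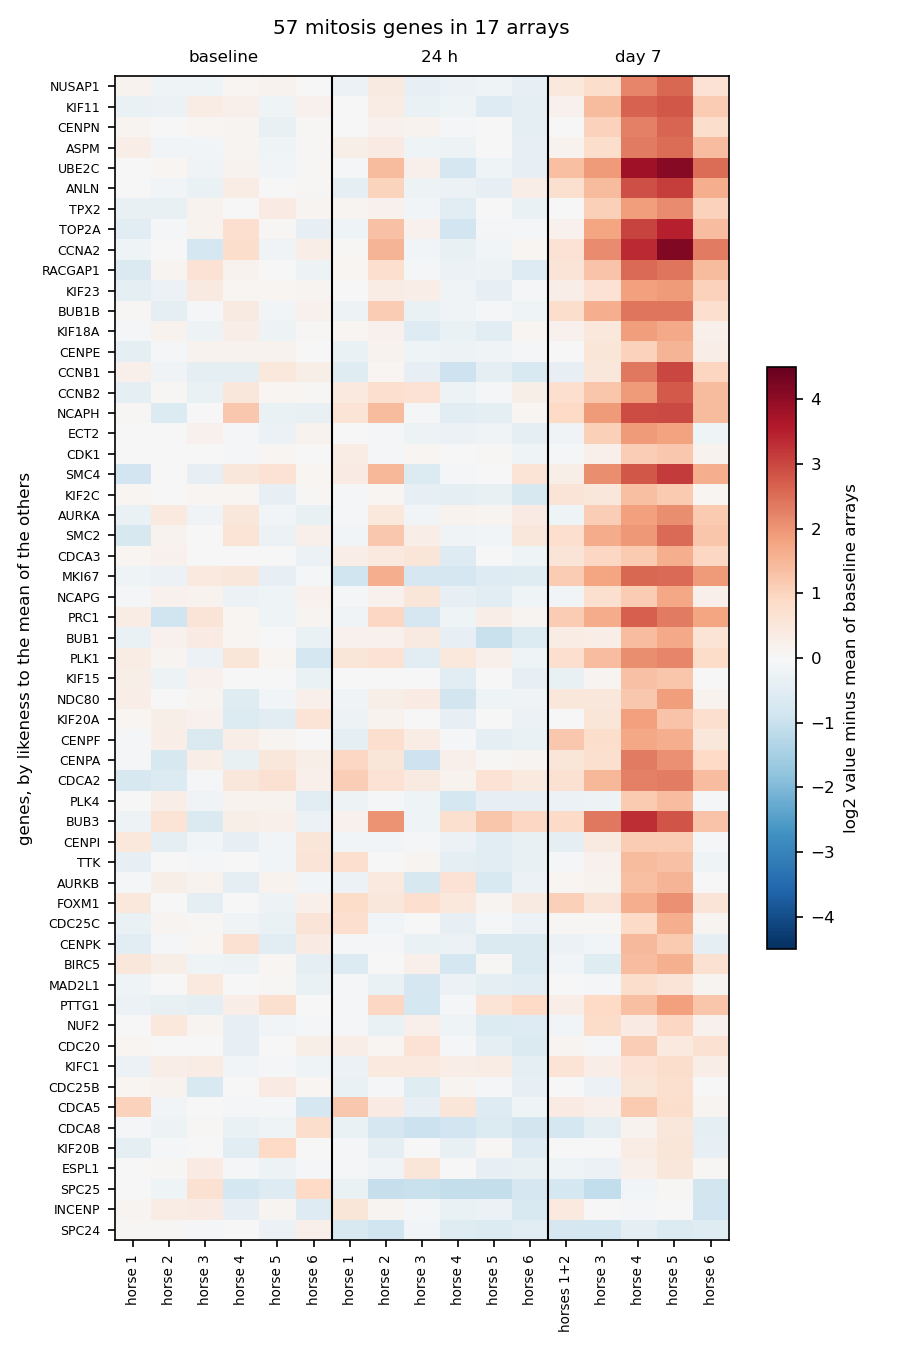
Log2 value minus the mean of the 6 baseline arrays (colour, log2 units) for 57 mitosis genes (rows, ordered by correlation with the mean of the other genes) in 17 arrays (columns, by time and horse). The day 7 arrays of horses 4 and 5 are raised in nearly all rows, the 24 h array of horse 2 in part of them, and SPC24, INCENP and SPC25 at the bottom are not raised.

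Other genes of cell division, described here from lists that were not tested as sets, had both called and uncalled genes at day 7, and they are read here against the 18% of all named genes called higher. Of 31 S phase genes measured, 14 rose (45.2%) and 0 fell, with a median log2 change of 0.69. Among them were E2F8, a repressor of the E2F family (1.56 ± 0.25, SE, adjusted p = 0.00448), MCM7, a subunit of the replicative helicase (1.62 ± 0.35, adjusted p = 0.0101), and TYMS, which makes thymidylate (1.52 ± 0.35, adjusted p = 0.0125). Of 46 other mitotic regulators and spindle genes 12 rose (26.1%) and 0 fell, with a median of 0.42. STMN1, the microtubule destabiliser stathmin, rose by 2.12 ± 0.47 (SE, adjusted p = 0.0108). WEE1, the kinase that restrains CDK1, rose by 2.24 ± 0.48 (adjusted p = 0.0101). UBE2S, which elongates ubiquitin chains for the anaphase promoting complex, rose by 0.83 ± 0.21 (adjusted p = 0.0163).

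The remaining lists held further subunits and the genes of G1. Of 26 other kinetochore and centromere genes 6 rose (23.1%) and 1 fell (median 0.37), among them SKA3, which helps kinetochores hold microtubules (1.48 ± 0.38, SE, adjusted p = 0.0178) and CENPW as the fall (-0.57 ± 0.18, adjusted p = 0.0349). Of 14 subunits and activators of the anaphase promoting complex 5 rose (35.7%) and 0 fell (median 0.49), among them ANAPC4 (1.21 ± 0.28, SE, adjusted p = 0.0131). Of 16 genes of cohesin, its regulators and further condensin subunits 6 rose (37.5%) and 0 fell (median 0.83). ESCO2, which acetylates cohesin in S phase, rose by 1.20 ± 0.25 (SE, adjusted p = 0.00912). Of 30 G1 cyclins, cell cycle inhibitors and DREAM complex genes 6 rose (20%) and 0 fell (median 0.41), a share near that of all named genes. Among the 6 were CDK4, the G1 kinase (1.98 ± 0.49, SE, adjusted p = 0.0157), and RB1, the retinoblastoma gene that restrains entry into S phase (1.77 ± 0.47, adjusted p = 0.0197). At 24 h 0 genes of these 6 lists were called, with medians between -0.08 and 0.28.

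**Figure D5:**
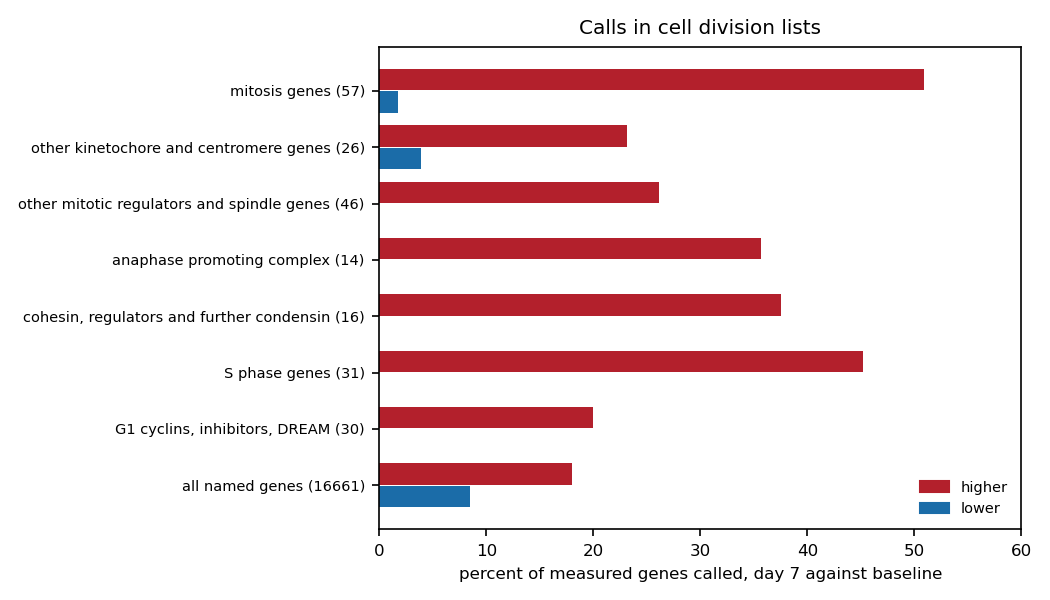
Percent of measured genes called at day 7 against baseline (x axis) in 7 groups of cell division genes and in all named genes, with the number measured in brackets; red bars are higher and blue bars lower. Mitosis genes (50.9% higher) and S phase genes (45.2% higher) have the longest red bars, against 18% of all named genes.

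Markers of some cell types of joint fluid changed over the same days. Their calls at day 7 are read here against the 18% of named genes called higher and the 8.43% called lower. The mean log2 level of 10 monocyte or macrophage markers lay between 6.31 and 7.91 at day 7, against 4.66 to 6.07 at baseline, and 7 of the 10 rose. CSF1R, the receptor for macrophage growth factors, averaged 9.02 at day 7, against 6.44 at baseline, and rose by 2.54 ± 0.51 (SE, adjusted p = 0.008). At 24 h the macrophage mean lay between 5.02 and 7.93, and 1 of the 10 markers had risen, where 0.72% of named genes had. The mean of 12 T cell markers lay between 4.79 and 5.17 at day 7, against 4.58 to 6.33 at baseline, with 3 lower. The 10 NK or cytotoxic cell markers lay between 3.79 and 4.47 at day 7, against 4.53 to 5.57 at baseline, with 2 lower. The 7 B or plasma cell markers had 2 lower and the 8 neutrophil markers 1 lower, and 0 of either list were higher. Of the 10 synovial fibroblast markers none were called, and of the 8 chondrocyte markers 1 was lower. A single lower call among 8 markers is near the share of all named genes. The chondrocyte mean lay between 3.51 and 4.27 at day 7 and between 4.04 and 4.50 at baseline, close to the median of all probe sets on the arrays. In the 24 h array of horse 2 the macrophage mean was 7.29, below the highest of the other 24 h arrays (7.93). Its T cell mean of 6.45 was the highest at 24 h (5.72 in the next array), as was its NK or cytotoxic cell mean of 4.995 (4.724 in the next array). Its neutrophil mean of 3.96 was the lowest at 24 h. The same held for its B or plasma cell (3.92), synovial fibroblast (3.576), chondrocyte (3.684) and red blood cell (3.245) means. Most lists were thus at an extreme in this array. At day 7 the macrophage mean was 6.31 in the shared array, 7.91 in horse 4 and 7.70 in horse 5. The part of cell composition in the change of the mitosis genes was not tested.

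The rise at day 7 was also read against brightness, since brighter probe sets had higher changes than dim ones in these arrays. With all probe sets in 4 classes by mean value, the named genes had median day 7 changes of -0.44, -0.26, 0.04 and 0.75 from the dimmest to the brightest class. The mitosis genes had 0.57 (4 genes), 0.49 (18 genes), 1.30 (25 genes) and 1.34 (10 genes). Calls as higher were made for 0, 6, 15 and 8 of them, where 0.0483%, 3.64%, 16.6% and 42.1% of named genes of the class were called higher. The classes were cut on the mean over all 17 arrays, day 7 included, so a rise at day 7 itself moves a gene towards a brighter class.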

How the data were processed

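RNA of joint fluid from 6 horses was measured on Affymetrix arrays. The deposited values are log2 expression values made by the authors, between 1.05 and 13.68, and the submitters' processing notes name Transcriptome Analysis Console 3.0, Affymetrix Expression Console and RMA without role or order. No further normalization was applied. Of 30559 probe sets, 16789 had 1 gene symbol in the platform annotation, 343 several and 13427 none, which gave 16661 genes, and the probe set with the highest mean stood for a gene. The near-identical day 7 columns of horses 1 and 2 (212 probe sets differ, none with a symbol, while the next closest pair of columns agreed at 2.05% of probe sets) were averaged and attributed equally to both horses.

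All 17 arrays were fitted together in limma 3.58.1 (R 4.3.3) with time and horse as factors and moderated by eBayes, and p-values were adjusted by Benjamini-Hochberg over all probe sets at a threshold of 0.05. The horses, named in the titles, pair the arrays. Residuals of arrays of 1 horse had a median correlation of -0.023 (18 pairs), against -0.004 for different horses (78 pairs). Without the replicate block 36 mitosis genes were called at day 7 against baseline, where 30.2% of probe sets were. Members, lists and comparisons were chosen with earlier results of these data known. Values per array were given for the 20 called genes with the smallest adjusted p and for a list of further genes. AURKA, CENPA, CENPN, KIF2C, KIF18A, ASPM, TPX2, KIF23, SPC24 and the examples from other lists were named after their values were seen. Other normalizations, filters, variance models, treatments of the shared array and left-out arrays were tried. Figures were drawn with matplotlib 3.10.9.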

Additional observations from a re-analysis of the deposited data

Results flagged for a closer look

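In 4 genes the 24 h array of horse 2 lay far above the other 5 arrays of that time. It read 5.26 for CCNA2 (others 3.42 to 3.82), 4.86 for BUB1B (others 3.44 to 3.65), 4.61 for NUSAP1 (others 3.85 to 4.01) and 6.69 for MKI67 (others 4.16 to 4.51). At baseline the array of horse 4 read 5.73 for NCAPH, and the others 3.91 to 4.55. These are the 5 of 87 gene and time groups in which the gap of 1 array to the next exceeded the critical share of the range, 0.625 for 6 arrays. Chance flags about 1 in 20 such groups.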

How the results depend on the processing

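Holding array spread as a covariate changed most: 0 of the 57 genes were then called at day 7 against baseline, the median change at 24 h was -0.43, and 48 rather than 53 day 7 changes were above 0. The change of PTTG1 at day 7 then turned to -0.072 and that of BIRC5, not called in any fit, to -0.07. Leaving out 1 horse, the 24 h array of horse 2 or the day 7 array of horse 4 or 5 gave 11 to 30 calls at day 7 against baseline. In these fits 5.76% to 27.9% of probe sets were called, and the medians of the 57 genes were 0.67 to 1.07. The fits without a single day 7 array of horse 4 or 5 were added after seeing the data. Against 24 h these left-out fits gave 0 to 19 calls, where 0% to 2% of probe sets were called, with medians of 0.78 to 1.08. At 24 h against baseline they gave 0 calls, where 0.0164% to 1.4% of probe sets were called, and medians of -0.22 to 0.01. Between day 7 and 24 h, 30 genes passed an unadjusted p under 0.05 with a 2-fold change, where 5.31% of probe sets did. Without the shared array 17 were called (median 1.21), and with it attributed to horse 1, 2 were, where 0.35% and 0.0393% of probe sets were. Against baseline the fit without the shared array gave 39 calls, where 31.8% of probe sets were called, and a median of 1.19. Without the replicate block, or with horse as a random effect, 36 genes were called at day 7 against baseline, among them all 30, where 30.2% and 31.4% of probe sets were, and 0 in the other comparisons. Quantile normalization moved the median of all named genes at day 7 by 0.12 and median centring by 0.15. Relative to it the mitosis genes had medians of 0.87 and 0.94, with 24 and 29 of the 30 calls kept. Of all probe sets, 9.35% and 21.1% were then called at day 7, against 27.3% as deposited. The sign at day 7 turned for CDC25B after quantile normalization and for INCENP after centring. The cause of these shifts was not tested. Dim probe sets and 5 day 7 arrays limit what could be detected.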
